A study of Rattus norvegicus with 12 samples.

Results

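Skeletal muscle holds several kinds of cell that can enter a primary culture together, and 5 genes that mark 2 of them, muscle cells and leukocytes, were followed through cultures of fibro-adipogenic progenitors. Myod1 (ENSRNOG00000011306), Myog (ENSRNOG00000030743) and Des (ENSRNOG00000019810) are the myogenic markers. Cd68 (ENSRNOG00000037563) and Ptprc (ENSRNOG00000000655) are the leukocyte markers. The 5 identifiers were taken from a list drawn up with earlier results of these data known. The tests below are thus not of genes chosen without sight of the data. All 5 are rows among the 32622 of the count table, and 4 of them passed the filter on low counts. Their names came with that list, since neither the count table nor the gene table used here pairs Ensembl identifiers with symbols.

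The cells were isolated from rat soleus, a postural muscle, and grown as primary cells to a subconfluent state. Control cultures came from rats without suspension, HS7 cultures from rats after 7 days of hindlimb suspension, in which the hind legs carry no weight, and HS14 cultures from rats after 14 days of it. Each was sequenced on days 0 and 3 of induction towards fat cells with insulin, dexamethasone and 3-isobutyl-1-methylxanthine, which gives 6 groups of 2 libraries. All groups share the same growth medium, and all day 3 cultures were induced, so that time in culture and induction cannot be told apart. The labels state neither strain, age nor the number of animals behind a culture. They do not say either whether the 2 replicates of a group are separate cultures, so p-values reflect the spread between libraries alone, and that spread may be technical.

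MyoD, the product of Myod1, is a basic helix-loop-helix transcription factor that commits cells to the muscle lineage and is made in activated satellite cells and myoblasts. Myogenin, the product of Myog, is a related factor that acts later, when myoblasts leave the cell cycle and fuse. Desmin, the product of Des, is the intermediate filament of muscle cells and is also made in smooth muscle cells and some pericytes. CD68 is a lysosomal membrane glycoprotein abundant in macrophages and present at lower levels in other cells, while CD45, the product of Ptprc, is a receptor tyrosine phosphatase on nearly all nucleated blood cells.

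MyoD and myogenin bind the E-box, the 6-base motif CANNTG, which reads the same on both strands. The 250 bases before the start of Myog (RefSeq, build GRCr8, chr13:48297226-48297475, plus strand) and of Des (chr9:84299376-84299625, plus strand) are shown 5′ to 3′. Both genes were high in the HS7 libraries in the data below. With induction Myog fell in control and HS7 cells, where the change of Des did not pass the test. E-boxes are in capitals.
Myog: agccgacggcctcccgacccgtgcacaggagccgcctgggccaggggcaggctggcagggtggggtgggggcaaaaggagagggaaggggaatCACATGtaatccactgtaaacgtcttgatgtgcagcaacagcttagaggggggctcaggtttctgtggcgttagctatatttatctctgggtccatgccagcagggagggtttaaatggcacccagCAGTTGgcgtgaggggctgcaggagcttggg
Des: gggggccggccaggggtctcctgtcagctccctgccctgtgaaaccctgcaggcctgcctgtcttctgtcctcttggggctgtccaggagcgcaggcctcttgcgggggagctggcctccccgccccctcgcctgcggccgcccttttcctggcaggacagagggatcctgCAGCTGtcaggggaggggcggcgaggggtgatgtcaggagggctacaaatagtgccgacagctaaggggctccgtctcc
The Myog window held 2 E-boxes, CACATG at bases 157 to 152 and CAGTTG at bases 31 to 26 before the start, and the Des window held 1, CAGCTG, at bases 79 to 74. E-boxes are common: 65.54% of the 33469 promoter windows of this length held at least 1, and the variant CAGCTG was in 11.97% of them. A match is a description of the letters and not a measured binding site. Of the 5 genes 4 had an entry in this table.

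Library totals ranged from 15105521 to 21484885 counts. The replicates of a group correlated at r = 0.988 to 0.991 over genes in log2 CPM (CPM is the read count in proportion to library size, here with libraries scaled by the trimmed mean of M values, TMM). Over genes with at least 20 reads, chi-square per degree of freedom between the 2 replicates was 2.69 to 4.64 in 5 groups and 7.36 in HS7 cells at day 0, so these replicates differed most. Even numbers made up 68.3% to 70.6% of all counts between 1 and 20, and 39 of the 52 values above 0 of the 5 genes. Both reads of a pair may thus have been counted, in which case a low value carries more counting error than its size tells. No marker of the progenitors themselves could be looked up, for want of symbols, so the label of the cultures was checked only against these 5 genes.

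The 3 myogenic markers were high in the HS7 libraries and low in all others. At day 0 they stood 7.51-fold to 13.9-fold above control cells, and at day 3 9.84-fold to 28.6-fold. The leukocyte marker Cd68 differed between HS7 and control cells at neither day by the test, and Ptprc had no more than 4 reads in any library. Of all Myod1, Myog and Des reads in the 12 libraries, 86.4%, 88.4% and 78.4% were in the 4 HS7 libraries, against 34.0% of the Cd68 reads. The HS7 libraries are 4 of the 12, with totals of 15551746 to 18179911 counts against 15105521 to 21484885 in the others.

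**Figure D1:**
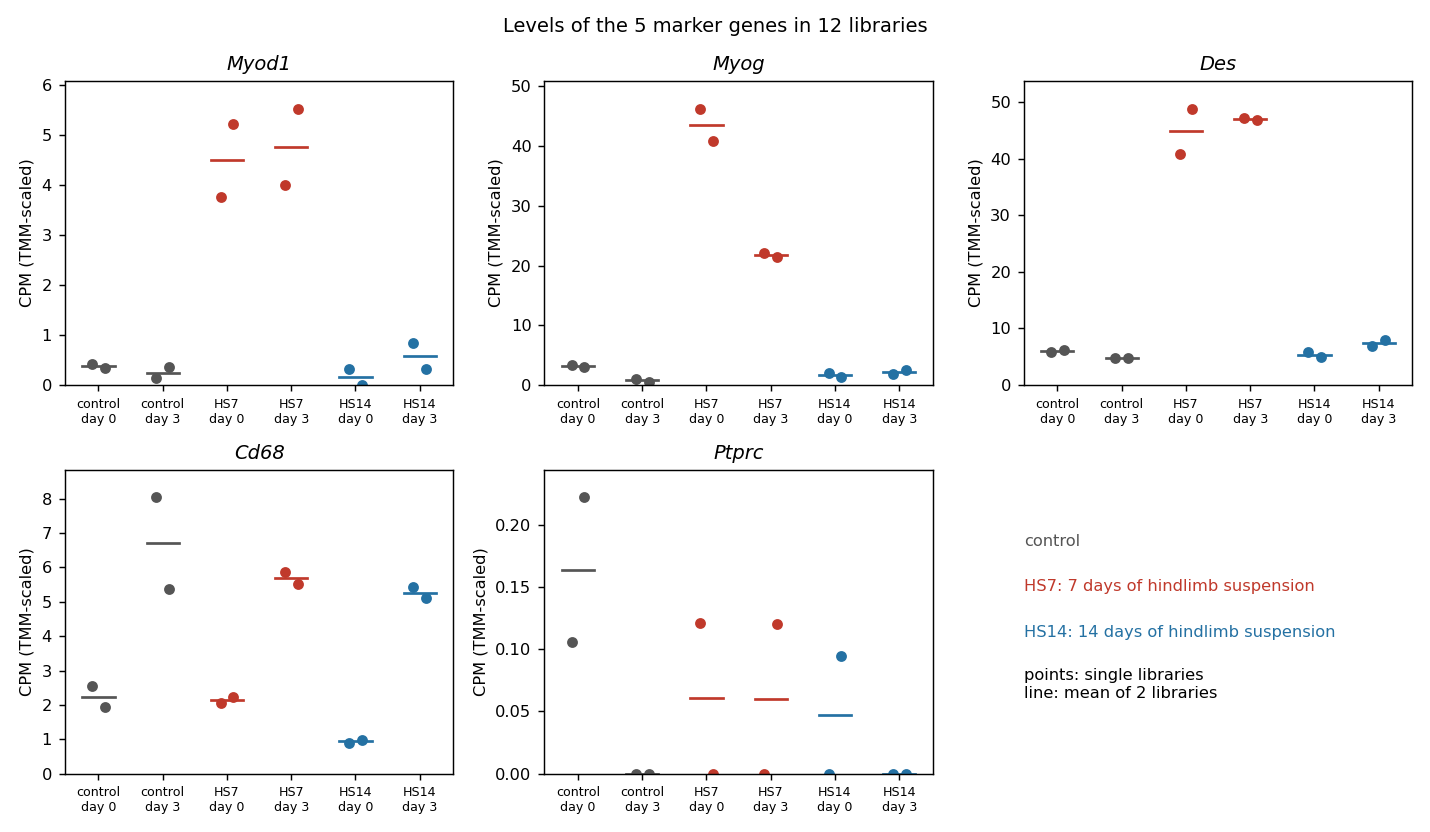
Level of each gene (CPM, TMM-scaled, linear axis from 0) in each of 12 libraries; points are libraries and lines the means of 2. For Myod1, Myog and Des all 4 HS7 libraries lie above the other 8, whereas Cd68 is higher at day 3 than at day 0 in every treatment and Ptprc stays at or under 0.222 CPM. How many of all genes separate the libraries in these ways was not counted.

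Myod1 had few reads outside the HS7 cultures. It had 8 and 6 reads in the control libraries at day 0, 2 and 6 in those at day 3, 6 and 0 in the HS14 libraries at day 0, and 15 and 6 in those at day 3. In the HS7 libraries it had 62 and 84 reads at day 0 and 74 and 92 at day 3. The lowest HS7 library thus held 62 reads and the highest other library 15, and the groups did not overlap. How many of all genes set the HS7 libraries apart in this way was not counted, here or for Myog and Des below. At day 0 this was 4.49 ± 1.03 CPM in HS7 against 0.379 ± 0.0646 CPM in control cells (SD, n = 2), a log2 difference of 3.54 (SE 0.51, adjusted p = 1.32e-06, edgeR quasi-likelihood test with Benjamini-Hochberg adjustment, as for all adjusted p-values here). At day 3 it was 4.75 ± 1.08 against 0.243 ± 0.159 CPM, a log2 difference of 4.22 (SE 0.57, edgeR adjusted p = 3.33e-07). This day 3 difference ranged from 3.71 to 5.11 with a library left out. Myod1 passed the filter on low counts only through its HS7 libraries, so neither p-value counts as support.

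Myog, the marker of differentiating myoblasts, had the largest fitted difference of the 3, with an interval that overlapped that of Myod1 (3.42 to 4.16 against 2.50 to 4.58 at day 0). Its reads were 763 and 657 in the HS7 libraries at day 0 against 62 and 54 in control cells and 38 and 28 in HS14 cells. At day 3 they were 409 and 356 in HS7 libraries, 16 and 8 in control libraries and 32 and 48 in HS14 libraries. Every HS7 library was above every other one, by 21.4 CPM or more against 3.29 CPM or less. The day 0 means were 43.5 ± 3.85 CPM in HS7 and 3.14 ± 0.206 in control cells (SD, n = 2), and the log2 difference was 3.79 (SE 0.18, edgeR adjusted p = 1.01e-18). The day 3 means were 21.7 ± 0.477 and 0.759 ± 0.404 CPM (log2 difference 4.85, SE 0.25, edgeR adjusted p = 2.58e-18), and this difference ranged from 4.37 to 5.50 with a library left out.

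Des, which encodes the structural protein, was present in every library, with 72 reads or more. Control libraries had 110 and 110 Des reads at day 0 and 72 and 82 at day 3, and HS14 libraries had 110 and 104 at day 0 and 122 and 150 at day 3. HS7 libraries had 673 and 786 reads at day 0 and 877 and 779 at day 3. The HS7 libraries lay between 40.8 and 48.8 CPM and the other 8 between 4.70 and 7.997, with no overlap. The log2 difference of HS7 from control was 2.91 at day 0 (44.8 ± 5.68 against 5.97 ± 0.191 CPM, SE 0.14, edgeR adjusted p = 9.46e-19) and 3.30 at day 3 (47.0 ± 0.359 against 4.78 ± 0.104 CPM, SE 0.15, edgeR adjusted p = 3.41e-20).

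Set against all genes tested, HS7 and control cells at day 0 differed in 3 of the 4 tested markers, where 23.0% of 13215 genes were called in either direction and 11.7% as higher. The filter asked for 0.554 CPM, without TMM scaling, in at least 2 libraries, which Myog, Des and Cd68 reached outside the HS7 cultures and Myod1, with 1 such library of 8, did not. Myod1 was thus tested only because of the libraries where it was high, and its call adds no support to this or a later count of markers. At day 3 the same 3 markers were called, against a background of 14.2% in either direction and 6.75% higher. Ranked by fitted log2 difference, Myog, Myod1 and Des stood at places 48, 63 and 135 from the top at day 0 and at places 30, 48 and 132 at day 3. The 2 days share no library, but the labels do not say whether their cultures came from the same isolation of cells. If they did, a difference between isolations would show at both days. In either case a difference between the isolations of HS7 and control cells cannot be told apart from suspension.

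**Figure D2:**
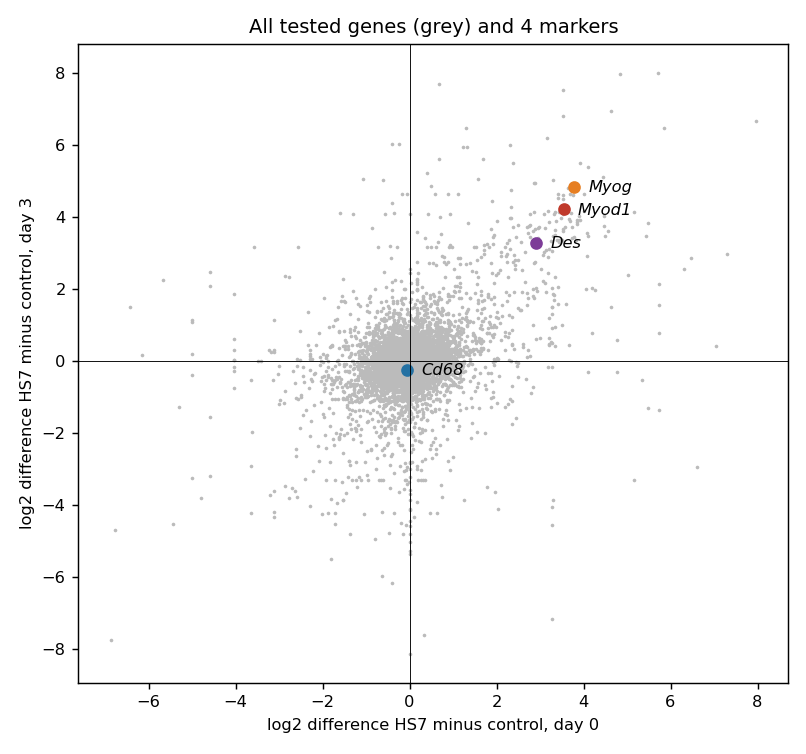
Fitted log2 difference of HS7 from control cells at day 0 (horizontal) and day 3 (vertical) for 13215 genes (grey) and the 4 tested markers (coloured). Myod1, Myog and Des lie far from the centre on both axes, between 2.91 and 4.85, and Cd68 lies at -0.07 and -0.23.

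After 14 days of suspension the myogenic markers were again low. At day 0 HS14 cells had 6 Myod1 reads in all against 146 in HS7 cells, and the log2 difference of HS14 from HS7 was -4.83 for Myod1 (SE 0.59), -4.72 for Myog (SE 0.20) and -3.06 for Des (SE 0.14). All 3 passed the test (edgeR adjusted p = 1.16e-07, 2.31e-20 and 2.81e-19). With Cd68, described below, 4 of the 4 tested markers were called lower, where 11.7% of all genes were called in either direction. Myod1 adds no support to this count, and the Cd68 call was lost on halved counts. The Myod1 value was -9.31 without the first HS14 library at day 0, which leaves 0 reads in that group, and -3.80 without the second. At day 3 the log2 differences were -3.02, -3.30 and -2.66 (edgeR adjusted p = 7.56e-06, 9.28e-16 and 6.54e-18), against 22.6% of genes called. The Myod1 difference at day 3 ranged from -3.85 to -2.46 with a library left out.

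Among all genes, 149 of 13215 (1.13%) were called higher in HS7 than in both control and HS14 cells at both days, and 97 (0.734%) of these were at least 4-fold higher in all 4 comparisons. Myod1, Myog and Des were among the 97. Myod1 was tested only through its HS7 reads, so its place there adds no support. The gene whose log2 CPM over the 12 libraries was most like that of Myog was ENSRNOG00000050675 (r = 0.988), at 53.3 to 98.8 CPM in the HS7 libraries and 3.49 to 9.15 CPM in the others. The one most like Des was ENSRNOG00000017786 (r = 0.995), at 91.3 to 122 CPM in HS7 libraries and 8.42 to 15.01 in the others. These r values describe 12 libraries that fall into a high and a low group, and they carry no test. In bulk RNA a larger number of cells of a type and more RNA of these genes per cell cannot be told apart. The part of muscle cells in other differences of the HS7 libraries was not tested.

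Between HS14 and control cells Myog was called lower at day 0 and higher at day 3, Des was called only at day 3 and Myod1 at neither day. At day 0 Myog was lower in HS14 cells, at 1.67 ± 0.480 against 3.14 ± 0.206 CPM (SD, n = 2; log2 difference -0.93, SE 0.26, edgeR adjusted p = 0.00908). This call was lost without the first control library (adjusted p = 0.0786) or the second HS14 library (log2 difference -0.64, adjusted p = 0.216). Des stood at 5.36 ± 0.622 CPM in HS14 cells at day 0, with a 95% interval of the log2 difference from control of -0.50 to 0.18, and Myod1 had 6 reads against 14 (log2 difference -1.29, SE 0.86, edgeR adjusted p = 0.365). Without the first HS14 library, which leaves 0 reads in that group, the Myod1 difference was -5.77 and passed (adjusted p = 0.0451), and without the second it was -0.25. In this comparison 16.7% of all genes were called, and 2 of the 4 tested markers, Myog and Cd68, both lower.

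At day 3 Myog and Des were higher in HS14 than in control cells. Myog stood at 2.18 ± 0.533 against 0.759 ± 0.404 CPM (SD, n = 2; log2 difference 1.55, SE 0.35, edgeR adjusted p = 0.000586). This difference ranged from 1.06 to 2.19 with a library left out. Des stood at 7.44 ± 0.788 against 4.78 ± 0.104 CPM (log2 difference 0.64, SE 0.17, edgeR adjusted p = 0.00371), a call lost without the second HS14 library at day 3 (adjusted p = 0.0597). Myod1 did not pass, with 21 reads against 8 (edgeR adjusted p = 0.242). The background here was 31.3% of genes called, and 2 of the 4 tested markers were called. Myod1 was tested only through its HS7 reads, and so few genes cannot be compared with that share.

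**Figure D3:**
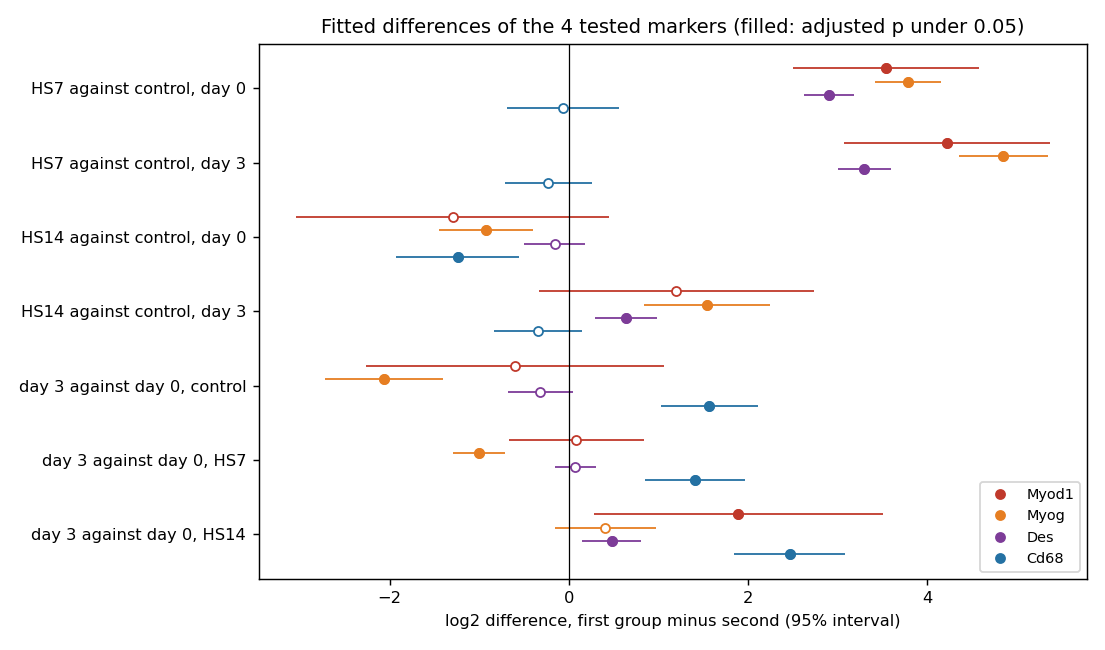
Fitted log2 difference with its 95% interval for the 4 tested markers in 7 comparisons; filled points passed an adjusted p of 0.05 and open points did not. The 3 myogenic markers are high in HS7 against control at both days, and Cd68 is high at day 3 against day 0 in all 3 treatments.

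With induction, Myog fell in control and HS7 cells while Des and Myod1 did not pass the test there. In HS7 cells Myog went from 43.5 to 21.7 CPM (log2 change -1.004, SE 0.14, edgeR adjusted p = 2.68e-07), and in control cells from 3.14 to 0.759 CPM (log2 change -2.06, SE 0.32, edgeR adjusted p = 1.18e-06). The change in control cells ranged from -2.71 to -1.58 with a library left out. In HS7 cells the 95% interval of the log2 change was -0.16 to 0.30 for Des and -0.67 to 0.83 for Myod1. From day 0 to day 3, 52.7% of all genes were called in control cells and 51.7% in HS7 cells. The smaller fold fall of Myog in HS7 than in control cells did not pass the test of the difference (log2 1.06, SE 0.37, edgeR adjusted p = 0.0585, with 10.4% of genes called). This value ranged from 0.58 to 1.71 with a library left out.

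The balance between Myog and Des within a library changed accordingly. HS7 libraries held 1.13 and 0.836 Myog reads per Des read at day 0 and 0.466 and 0.457 at day 3. Control libraries held 0.564 and 0.491 at day 0 and 0.222 and 0.0976 at day 3. In both, each day 3 library was below both day 0 libraries, and in HS14 cells the values overlapped, at 0.345 and 0.269 on day 0 and 0.262 and 0.320 on day 3. The ratio depends on the lengths of the transcripts, so only its change between libraries is read here.

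**Figure D4:**
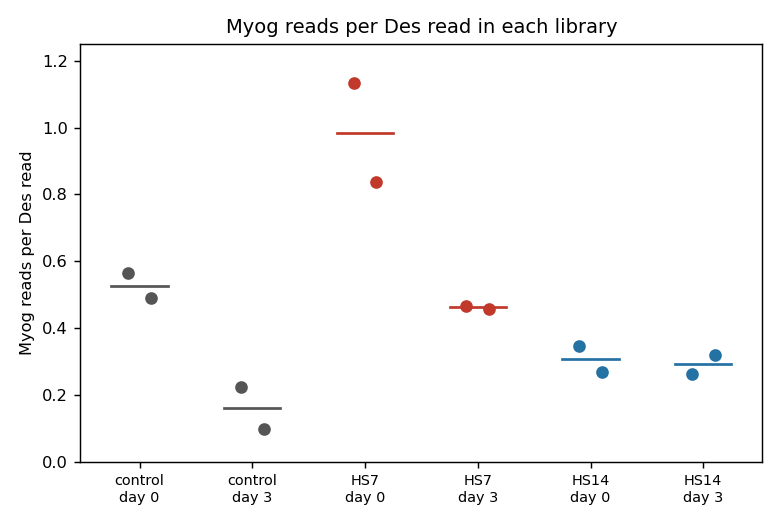
Myog reads per Des read in each of 12 libraries; points are libraries and lines the means of 2. The ratio is highest in HS7 libraries at day 0 (0.836 and 1.13) and lower at day 3 in control and HS7 libraries, while the HS14 libraries of the 2 days overlap.

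In HS14 cells Des rose from day 0 to day 3 and Myog did not pass. Des went from 5.36 to 7.44 CPM (log2 change 0.48, SE 0.16, edgeR adjusted p = 0.0123), a call lost without the second HS14 library at day 0 (adjusted p = 0.135) or at day 3 (0.127). Myod1, at 6 reads on day 0 and 21 on day 3 (log2 difference 1.89, SE 0.80, edgeR adjusted p = 0.0419), was tested only through its HS7 reads, and its call carries no weight here. It was lost on halved counts (adjusted p = 0.0603), without the second HS14 library at day 0 (log2 0.86, adjusted p = 0.398), without the first at day 3 (log2 1.06, adjusted p = 0.431) and without the second HS7 library at day 3 (0.0509), and the difference was 6.38 without the first HS14 library at day 0. Myog went from 1.67 to 2.18 CPM (log2 change 0.41, edgeR adjusted p = 0.218). Of all genes, 55.8% were called in this comparison. The change differed from that of control cells by the test of the difference for Myog (log2 2.47, SE 0.43, edgeR adjusted p = 3.37e-05, and 1.99 to 3.12 with a library left out) and Des (0.80, SE 0.24, edgeR adjusted p = 0.0139) but not for Myod1 or Cd68 (edgeR adjusted p = 0.123 and 0.128), against 21.9% of all genes. The Myod1 value was 2.49 in the fit to all libraries, 6.97 without the first HS14 library at day 0, where it passed (adjusted p = 0.0122), and 1.45 without the second. The Des call was lost without the second HS14 library of either day (adjusted p = 0.0789 and 0.0741).

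For the order of the groups, Des was highest in HS7 cells at day 3 and day 0, whose libraries overlapped, followed at a distance by HS14 at day 3, control at day 0, HS14 at day 0 and control at day 3. Control and HS14 cells at day 0 are neighbours in that order whose difference did not pass the test (edgeR adjusted p = 0.615). Myog was highest in HS7 at day 0, then HS7 at day 3, control at day 0, HS14 at day 3, HS14 at day 0 and control at day 3. The libraries of HS14 at day 3 and at day 0 overlapped for Myog. For Myod1 the HS7 groups overlapped each other, and the other 4 groups each held 21 reads or fewer in 2 libraries together.

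Cd68, the lysosomal marker used for macrophages, followed the day of induction and not the HS7 label. It had 48 and 35 reads in control libraries at day 0 and 34 and 36 in HS7 libraries, and at day 3 it had 123 and 91 against 109 and 92. The HS7 and control libraries overlapped at both days. The log2 difference of HS7 from control was -0.07 at day 0 (95% interval -0.69 to 0.56, edgeR adjusted p = 0.915) and -0.23 at day 3 (-0.72 to 0.26, edgeR adjusted p = 0.628). These intervals leave out an increase of the size seen for Myod1, Myog or Des, though not a small difference in either direction.

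From day 0 to day 3 Cd68 rose in all 3 treatments. It went from 2.24 ± 0.427 to 6.71 ± 1.87 CPM in control cells (SD, n = 2; log2 change 1.57, SE 0.27, edgeR adjusted p = 5.12e-06) and from 2.15 ± 0.124 to 5.70 ± 0.249 CPM in HS7 cells (1.41, SE 0.28, edgeR adjusted p = 4.87e-05). In HS14 cells it went from 0.946 ± 0.0689 to 5.27 ± 0.211 CPM (2.47, SE 0.30, edgeR adjusted p = 1.02e-08). From day 0 to day 3, 52.7%, 51.7% and 55.8% of all genes were called in control, HS7 and HS14 cells, so such a call was common. All 6 libraries of day 3, at 5.12 to 8.03 CPM, were above all 6 of day 0, at 0.897 to 2.55 CPM. How many genes separate the days in this way was not counted. The Cd68 change did not differ from that of control cells by the test in HS7 (edgeR adjusted p = 0.868) or in HS14 cells (log2 difference of the changes 0.90, edgeR adjusted p = 0.128).

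HS14 cells had the fewest Cd68 reads at day 0, 17 and 21. This was below control cells (log2 difference -1.24, SE 0.34, edgeR adjusted p = 0.00759) and HS7 cells (-1.17, SE 0.35, edgeR adjusted p = 0.0207). The first call was lost without the first control library (adjusted p = 0.118) or the first HS14 library (0.0688). The second was lost on halved counts (0.0607) and without any 1 of the 4 libraries compared (0.0575, 0.0778, 0.128 and 0.0912, in the order HS7 first and second, HS14 first and second). At day 3 HS14 and control libraries overlapped (edgeR adjusted p = 0.299).

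Ptprc, the defining surface marker of leukocytes, was at or near 0 in every library. It had 2 and 4 reads in the control libraries at day 0, 2 and 0 in the HS7 libraries at day 0, 0 and 2 in those at day 3, and 0 and 2 in the HS14 libraries at day 0. Control and HS14 cells at day 3 had 0 reads in both libraries, which allows up to 0.0931 and 0.0822 CPM (3 counts over the group, counting error only). In all there were 12 reads, each library's number even, and 7 of 12 libraries had none. Ptprc did not pass the filter on low counts and was not tested, and a difference between groups was not detectable at this depth. Ptprc had at most 4 reads in a library at day 0 and at most 2 at day 3. Whether leukocytes had a part in the rise of Cd68 was not tested.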

How the data were processed

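The authors deposited 1 table of raw counts for 32622 rat Ensembl identifiers with 12 columns, each named as 1 library is in the labels. The tools named per the submitters' processing notes are STAR 2.7, featureCounts 1.6.4, FastQC 0.11.9 and DESeq2, with the build Rnor_6.0. Their roles, settings, strand option and annotation are not given there, nor how reads shared by overlapping genes were counted. Libraries were stranded (TruSeq) with 51 bp reads, per the labels.

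Counts were analysed with edgeR 4.0.16 in R 4.3.3: filterByExpr (13215 genes kept), TMM scaling, and 1 quasi-likelihood fit of 6 group means to 12 libraries (6 residual degrees of freedom), with 9 comparisons of groups and 2 differences of responses. The Benjamini-Hochberg threshold was 0.05 over all genes tested. An SE is the log2 difference divided by the square root of F. The script was tested on simulated data. Likeness was Pearson's r of log2 CPM (prior count 2).

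The genes and lists were chosen with earlier results of these data known. The rule named the 5 genes and, for each reaching a mean of 5 CPM, the 3 genes most like it; since identifiers could not be paired with symbols (0 of 32622 matched), 2 of those are named and the marker lists were not used. Alternatives were RLE and total-count scaling, DESeq2 1.42.0, no filter, a replicate block, halved counts and each library left out. Floors cover counting error only and make no allowance for both reads of a pair being counted.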

Additional observations from a re-analysis of the deposited data

Results flagged for a closer look

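The change of Myog from day 0 to day 3 differed between HS14 and control cells by the test of the difference itself (log2 2.47, SE 0.43, edgeR adjusted p = 3.37e-05). Myog went from 116 to 24 reads in the 2 control libraries of each day and from 66 to 80 in the HS14 libraries. The difference ranged from 1.99 to 3.12 with a library left out. For Des the difference was 0.80 (SE 0.24, edgeR adjusted p = 0.0139), with 220 and 154 reads in control cells and 214 and 272 in HS14 cells. The Des call was lost without the second HS14 library at day 0 (adjusted p = 0.0789) or at day 3 (0.0741). Of all genes 21.9% were called in this comparison.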

How the results depend on the processing

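For Myog and Des, the higher level in HS7 than in control and in HS14 cells kept its direction and passed the threshold at both days under all 18 alternatives. The same held for Myod1, but in the main fit it was tested only through its HS7 reads, so this adds no support. Of the 792 values of 44 gene results under the alternatives, 763 kept direction and side of the threshold, 18 lost the call, 4 gained it and 7 changed sign. The 7 sign changes were of differences that did not pass. Cd68 in HS7 against control was 0.15 without the first control library at day 0 and 0.080 without the first at day 3, with ranges of -0.24 to 0.15 and -0.49 to 0.080 over the libraries left out. The change from day 0 to day 3 in HS7 cells ranged from -0.18 to 0.33 for Myod1 and from -0.056 to 0.20 for Des, and the difference of the Cd68 change between HS7 and control cells from -0.43 to 0.15. The Cd68 difference of HS14 from HS7 at day 0 was -1.10 on halved counts and -1.26 to -1.11 with a library left out. Genes called between HS14 and HS7 numbered 1550 at day 0 (862 to 1695 with a library left out) and 2988 at day 3 (1700 to 3351). The fit with a replicate block changed no call of the 4 tested genes; for Myog in HS7 against control at day 0 it gave 3.79 (edgeR adjusted p = 4.66e-17). The differences between replicates 1 and 2 correlated over genes at -0.0508 to 0.0411 between groups, so the numbers do not pair the libraries. Total-count scaling moved the median gene by up to 0.11 (log2); the share of called genes that were higher went from 50.8% to 62.8% for HS7 against control at day 0, from 51.2% to 30.2% for HS14 against control at day 3, and from 46.6% to 20.6% and 51.2% to 22.1% for HS14 against HS7 at days 0 and 3. It also moved the share of the HS14 minus control responses from 50.2% to 36.9%. With a library left out, the lone library of its group is assumed to vary like the other groups. At 15 reads a library or fewer, as for Myod1 outside HS7 and for Ptprc, the depth limits any comparison.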
